A study of Rattus norvegicus with 8 samples.

Results

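The 8 genes of cholesterol synthesis and its control followed here, in the lungs of male rats, were Hmgcs1, Idi1, Fdps, Sqle, Lss, Dhcr7, Insig1 and Srebf2. They were chosen by name, and every non-control probe of the array whose RefSeq accession belongs to one of them was taken, which gave 11 probes of 45598 and 8 genes of 16667 with a symbol. All 8 had at least 1 probe, and all 11 probes were well above background on all 8 arrays. The data were 8 one-colour microarrays, 2 for each of 4 groups, hybridised with Cy3-labelled cDNA made from 200 ng of RNA of 30 mg lung tissue. The naive group breathed normal air. The smoke group was exposed to cigarette smoke (CS) for 12 weeks. The EV group had the same exposure and then received, into the trachea at week 13, hUC-MSC-EV, the extracellular vesicles (small membrane-bound particles that cells release) of about 2500000 human umbilical cord mesenchymal stem cells. The MSC group had the same exposure and received about 2500000 of the cells themselves (hUC-MSC) by the same route. The labels name no strain or age. They leave unsaid whether the 2 samples of a group came from different rats, so every p-value here rests on the spread of these samples alone, and that spread may be technical.

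Cells build cholesterol from acetyl-CoA through the mevalonate pathway, whose first part ends at farnesyl diphosphate and whose second part runs from squalene through lanosterol to cholesterol. The pathway is controlled by SREBP2, a membrane-bound transcription factor that SCAP carries from the endoplasmic reticulum to the Golgi when sterol is low and that INSIG proteins hold back when sterol is high. In the lung, alveolar type 2 cells use cholesterol and fatty acids for surfactant, and alveolar macrophages take up and degrade that lipid. Lung tissue holds many cell types, and in such bulk samples fewer cells of a type and less RNA per cell cannot be told apart.

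The level of a gene is given throughout as log2 of its processed signal minus log2 of the array's 75th percentile. A difference of 1 is a doubling, and a gene counts as called when its adjusted p (limma, Benjamini-Hochberg over 25097 features) was at most 0.05. That scale needs a caution. The 75th percentile itself was 6.49 times as high in the smoke group as in naive, 1.34 times in EV and 0.553 times in MSC, whereas the E1A controls, spike-in RNAs added to the labelling, stood at 0.832, 0.959 and 1.15 times naive. Scaling to the E1A controls therefore raises every gene of a smoke array by 1 amount, and the difference between 2 genes does not depend on that choice. The direction of single genes does, and it is given for both scalings below.

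The 5 genes that were called in smoke against naive are shown by their promoters, because Hmgcs1, Idi1 and Lss moved one way and Fdps the other, while the 2 probes of Insig1 moved apart. RefSeq (GRCr8) gave a promoter for 7 of the 8 genes, with none used here for Sqle. Each line holds the 250 bases before the start of the gene, 5′ to 3′ on the gene's strand. Capitals mark CCAAT or its reverse complement ATTGG, the box bound by NF-Y, a factor known to work beside SREBPs at sterol genes. They lie at chr2:53382054-53382303 (plus strand) for Hmgcs1, chr17:66547525-66547774 (minus) for Idi1, chr20:12118231-12118480 (minus) for Lss, chr4:8057770-8058019 (minus) for Insig1 and chr2:176804817-176805066 (minus) for Fdps.
Hmgcs1: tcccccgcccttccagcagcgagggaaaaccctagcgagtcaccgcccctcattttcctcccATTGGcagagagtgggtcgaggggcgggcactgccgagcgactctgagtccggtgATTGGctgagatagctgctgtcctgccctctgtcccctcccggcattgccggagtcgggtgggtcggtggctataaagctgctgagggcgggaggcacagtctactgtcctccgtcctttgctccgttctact
Idi1: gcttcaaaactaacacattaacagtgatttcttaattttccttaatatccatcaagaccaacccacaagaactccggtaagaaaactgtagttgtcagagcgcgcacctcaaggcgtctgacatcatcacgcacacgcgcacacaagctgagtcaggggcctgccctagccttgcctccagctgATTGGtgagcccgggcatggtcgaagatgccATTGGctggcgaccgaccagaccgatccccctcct
Lss: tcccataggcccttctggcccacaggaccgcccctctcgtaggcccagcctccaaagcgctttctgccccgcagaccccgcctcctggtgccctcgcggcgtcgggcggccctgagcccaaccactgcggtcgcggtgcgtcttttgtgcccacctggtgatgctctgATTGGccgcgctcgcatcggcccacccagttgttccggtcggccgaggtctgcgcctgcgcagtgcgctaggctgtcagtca
Insig1: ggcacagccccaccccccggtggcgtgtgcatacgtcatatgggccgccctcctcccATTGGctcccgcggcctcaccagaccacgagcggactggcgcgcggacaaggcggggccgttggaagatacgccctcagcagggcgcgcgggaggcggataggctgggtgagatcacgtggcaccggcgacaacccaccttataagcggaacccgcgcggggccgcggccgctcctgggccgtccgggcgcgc
Fdps: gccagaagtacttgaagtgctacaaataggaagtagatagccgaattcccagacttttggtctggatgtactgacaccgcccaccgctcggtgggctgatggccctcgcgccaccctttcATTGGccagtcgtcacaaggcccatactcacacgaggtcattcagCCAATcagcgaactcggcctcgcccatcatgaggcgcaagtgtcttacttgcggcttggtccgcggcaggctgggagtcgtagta

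CCAAT, searched on both strands, was found in 6 of the 7 promoters, against 34.0% of 33469 promoters of the same length. Fdps held it 85 and 130 bases before the start, Hmgcs1 at 133 and 188, Idi1 at 35 and 66, Lss at 82, Insig1 at 193 and Srebf2 at 129, while Dhcr7 held none. The GC box GGGCGG was in 6 of 7 (30.5% of all), with none in Idi1. The letters TCACCCC, a core of the sterol regulatory element that SREBPs bind, were in 1 of 7 (3.86% of all), Srebf2 itself, 156 bases before the start. These are matches of letters, and a promoter with none may still hold other forms of the element. The promoter of Fdps shared the CCAAT box with Hmgcs1, Idi1 and Lss, whose levels moved the other way on this scale.

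In smoke against naive, 5 of the 8 genes were called: Hmgcs1, Idi1, Lss and Insig1 were lower and Fdps was higher. Hmgcs1 fell by 1.48 (SE 0.32) and Fdps rose by 2.34 (SE 0.41), or 5.08-fold. The 5 called genes are 62.5% of the set, beside 47.5% of all features (12.1% higher and 35.4% lower), and the median difference of the 8 was -0.83, beside -0.62 over all features. The arrays of the 2 groups did not overlap for any of the 8 genes, as was so for 79.4% of all features. Scaled to the E1A controls, all 8 were called higher in smoke, with a median of 2.13 beside 2.34 for all features.

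In MSC against smoke, 5 genes were again called, beside 59.7% of all features: Hmgcs1, Idi1, Lss and Insig1 were higher (43.3% of all features were) and Fdps was lower (16.4% were). In EV against smoke, 2 genes were called, beside 39.8% of features: Lss was higher (29.9% were) and Fdps was lower (9.97% were). The median difference of the 8 genes was 0.62 for MSC and 0.66 for EV, beside 0.74 and 0.55 over all features. Arrays of the 2 groups did not overlap for 5 genes in MSC against smoke (80.5% of all features) and for 7 in EV against smoke (82.8%). These comparisons and the one with naive share the 2 smoke arrays. Scaled to the E1A controls, all 8 genes were called lower than smoke in both treatments.

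**Figure D1:**
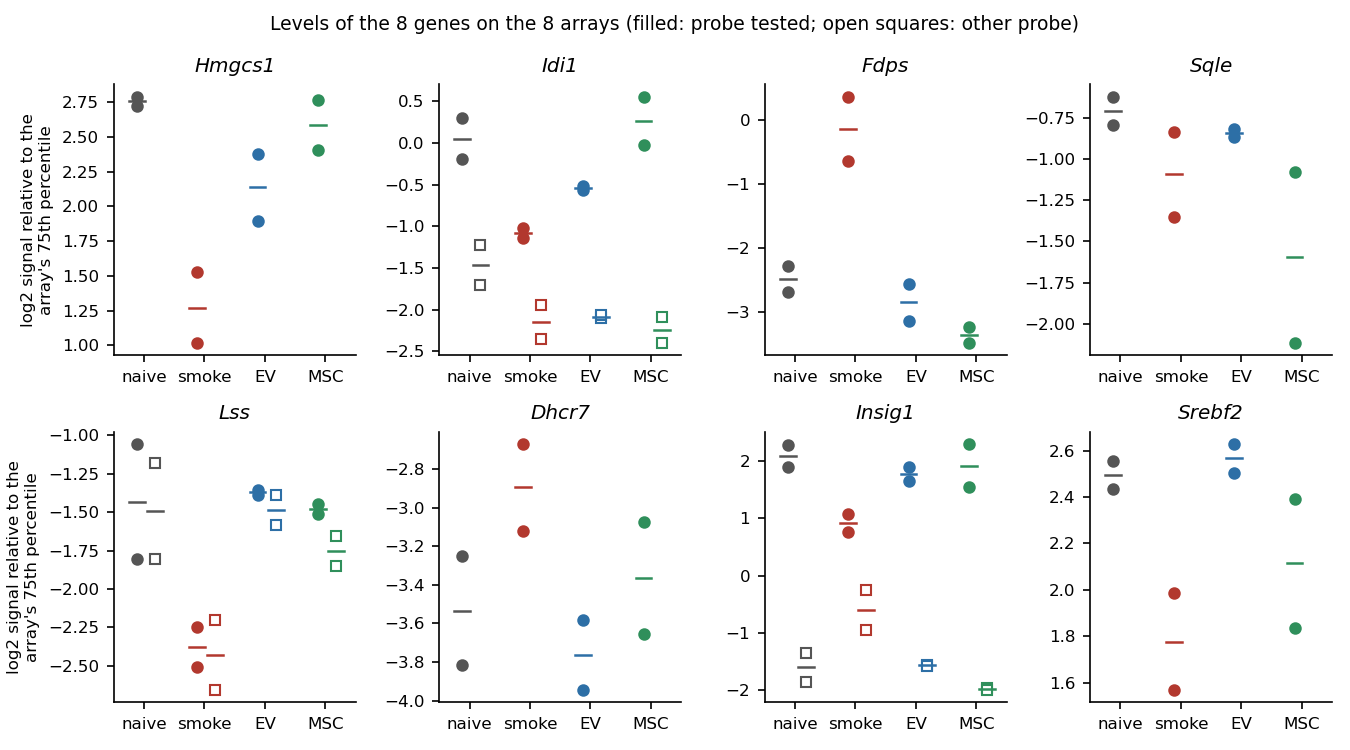
Level of each of the 8 genes on each of the 8 arrays (log2 signal relative to the array's 75th percentile), with 1 panel per gene, groups on the x axis, filled points for arrays, open squares for the second probe of Idi1, Lss and Insig1, and bars for group means. Fdps is highest on the 2 smoke arrays, and Hmgcs1, Lss and the tested probes of Idi1 and Insig1 are lowest there on this scale. The second Insig1 probe is highest there, and the second Idi1 probe has its lowest value on an MSC array.

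Hmgcs1 makes HMG-CoA at the start of the pathway. Its level was 2.79 and 2.73 in naive, 1.02 and 1.53 in smoke, 1.90 and 2.38 with EV, and 2.77 and 2.40 with MSC. Both smoke arrays lay below all others. The difference of smoke from naive was -1.48 (adjusted p = 0.00898 in limma), that of MSC from smoke 1.31 (adjusted p = 0.00959), and that of EV from smoke 0.87 (SE 0.32, adjusted p = 0.0654). Leaving out smoke array 1 ended both calls of Hmgcs1 (adjusted p = 0.0745 against naive at -1.23, and 0.0747 for MSC at 1.06). The call for MSC was also lost with quantile normalization (0.71, adjusted p = 0.0722) and cyclic loess (0.70, adjusted p = 0.0612). The EV difference passed in 4 alternatives, normexp, a filter on all 8 arrays, the trended prior and array weights (adjusted p from 0.0282 to 0.0403). Scaled to E1A, Hmgcs1 was higher in smoke than in naive by 1.48, less than the median feature.

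Idi1 isomerises isopentenyl diphosphate, the building unit of the pathway. The probe that stands for it was at 0.30 and -0.20 in naive, -1.02 and -1.14 in smoke, -0.57 and -0.52 in EV and 0.55 and -0.03 in MSC. The 2 smoke arrays were again the lowest, and the EV arrays lay between them and the rest. Smoke was lower than naive by a log2 difference of -1.13 (SE 0.32, adjusted p = 0.0232), and MSC was higher than smoke by 1.34 (adjusted p = 0.00851), whereas EV differed from smoke by 0.54 (adjusted p = 0.21). The call against naive was lost without naive array 1 or without either smoke array (differences from -1.19 to -0.88, adjusted p from 0.092 to 0.101). A second Idi1 probe differed by -0.69 in smoke against naive (adjusted p = 0.104 over all kept probes) and by -0.09 in MSC against smoke (adjusted p = 0.811), so the rise with MSC rested on 1 probe. RefSeq lists 5 loci related to Idi1 or Idi2, 1 of them with a probe here, and how far their transcripts reach these probes was not tested.

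Fdps makes farnesyl diphosphate, the branch point to sterols, dolichol, ubiquinone and protein prenylation. Its probe is printed in 10 spots, of which 8 to 10 entered the mean on an array, with a coefficient of variation between spots of 1.87% to 17.8%. Its level was -2.29 and -2.68 in naive, 0.36 and -0.64 in smoke, -2.57 and -3.14 in EV and -3.49 and -3.23 in MSC. Before any scaling, its signal was 4155 and 1714 on the smoke arrays and between 21.9 and 128.7 on the other 6. Both smoke arrays thus stood above all others on either scale.

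The fall of Fdps against smoke was -2.71 with EV (6.56-fold, SE 0.41, adjusted p = 0.0047) and -3.22 with MSC (9.31-fold, adjusted p = 0.000593), and its rise in smoke had an adjusted p of 0.00438. Fdps was the member that kept its direction and its call in these 3 comparisons under all 21 alternatives, which included every array left out in turn. Scaled to E1A, it was higher in smoke than in naive by 5.31, and its difference from smoke was -5.20 with EV and -7.24 with MSC. With normexp, another background correction, the same differences were smaller, at 1.67, -2.02 and -1.73. Relative to the median feature of each comparison on the main scale, which no scaling by a constant changes, Fdps stood at 2.96, -3.26 and -3.96. RefSeq lists 5 Fdps-related loci, none with a probe of its own on this array, so the share of their transcripts in this signal was not tested.

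**Figure D2:**
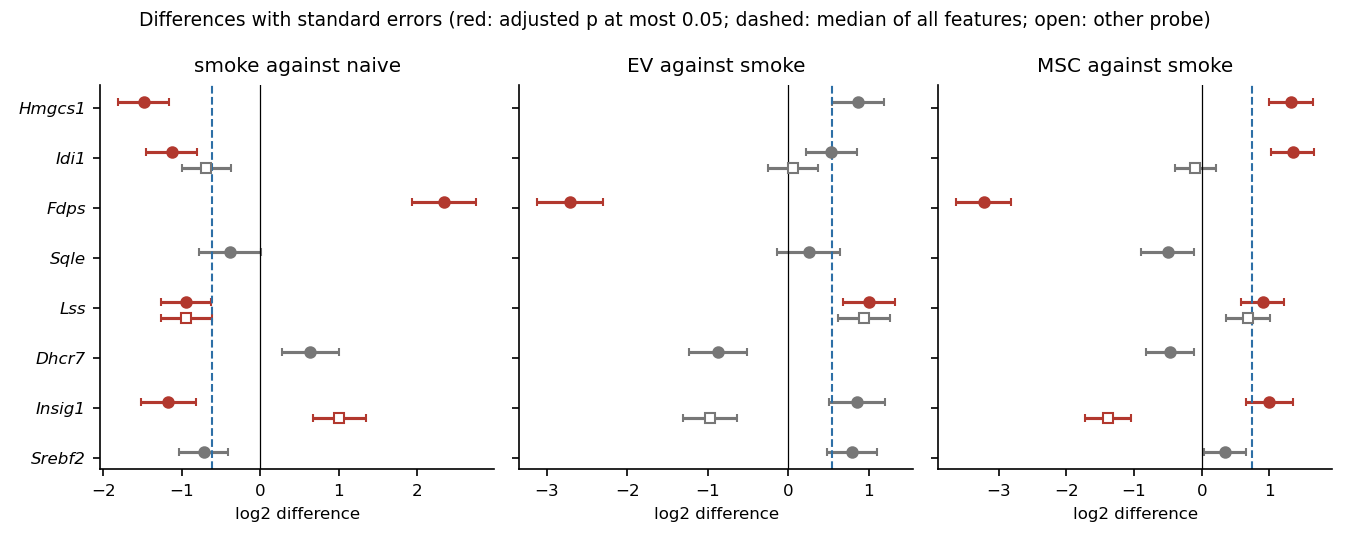
Log2 difference (x axis) of each of the 8 genes in the 3 comparisons with smoke, with points for the fitted difference, bars for its standard error, open squares for second probes, red for an adjusted p of at most 0.05 and a dashed line for the median of all features. Fdps lies across 0 from Hmgcs1, Lss and the tested probes of Idi1 and Insig1 in all 3 panels. The second Insig1 probe lies on the side of Fdps, and so does the second Idi1 probe in MSC against smoke (-0.09).

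Sqle oxidises squalene and is a rate-limiting step. Its 10 spots agreed within a coefficient of variation of 3.49% to 7.94%. Its level was -0.79 and -0.62 in naive, -0.84 and -1.35 in smoke, -0.87 and -0.82 in EV and -2.12 and -1.08 in MSC. The differences were -0.39 in smoke against naive (adjusted p = 0.434), 0.25 in EV against smoke (adjusted p = 0.625) and -0.50 in MSC against smoke (adjusted p = 0.298). Its 95% interval in smoke against naive ran from -1.30 to 0.52, which does not show that it was unchanged. MSC array 1 was the lowest of all, and the sign in MSC against smoke turned to 0.02 without it. Without MSC array 2, Sqle passed the threshold at -1.02 (adjusted p = 0.0389).

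Lss closes squalene epoxide into lanosterol, the first sterol ring. It was at -1.06 and -1.81 in naive, -2.51 and -2.25 in smoke, -1.35 and -1.39 in EV and -1.45 and -1.51 in MSC, so the 2 smoke arrays were lowest. Smoke differed from naive by -0.95 (SE 0.32, adjusted p = 0.0444), EV from smoke by 1.01 (adjusted p = 0.0417) and MSC from smoke by 0.90 (adjusted p = 0.0434). A second Lss probe gave -0.94, 0.94 and 0.68 in the same order, with adjusted p of 0.0482, 0.0539 and 0.11. All 3 calls lay close to the threshold. All 3 were lost with quantile normalization (adjusted p from 0.105 to 0.232) and with cyclic loess (0.128 to 0.218). The call of MSC was lost in 14 of 21 alternatives. The call against naive was lost without naive array 1, either smoke array or either EV array (adjusted p from 0.0764 to 0.205). That of EV was lost without any of the 4 arrays compared (0.0892 to 0.209), and that of MSC without any of the 6 treated or smoke arrays (0.0745 to 0.189).

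Dhcr7 catalyses the last step to cholesterol and also consumes the precursor of vitamin D. Its level was -3.25 and -3.82 in naive, -2.67 and -3.12 in smoke, -3.58 and -3.95 in EV and -3.66 and -3.07 in MSC. It was the other gene with a higher mean in smoke than in naive, by 0.64 (SE 0.36, adjusted p = 0.172). EV lay below smoke by -0.87 (adjusted p = 0.0877) and MSC by -0.47 (adjusted p = 0.287). These differences did not pass the test on this scale, and other settings gave calls in both directions. With cyclic loess Dhcr7 was called lower than smoke with EV at -1.29 (adjusted p = 0.0344) and with MSC at -1.20 (adjusted p = 0.0269). It was also called lower with MSC after quantile normalization (-1.09, adjusted p = 0.0457) and with EV under array weights (adjusted p = 0.0309). With normexp the 3 differences turned to -0.43, 0.12 and 0.92, and the last was called (adjusted p = 0.00442). Over all alternatives the adjusted p ran from 0.000379 to 0.686 for EV and from 8.17e-06 to 0.722 for MSC.

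Insig1 encodes the protein that holds SCAP in the endoplasmic reticulum and is itself a target of SREBP2. The probe that stands for it was at 2.28 and 1.91 in naive, 1.08 and 0.77 in smoke, 1.66 and 1.90 in EV and 2.30 and 1.55 in MSC. Smoke was lower than naive by a log2 difference of -1.17 (SE 0.35, adjusted p = 0.0273), and MSC was higher than smoke by 1.00 (adjusted p = 0.0378). EV differed from smoke by 0.85 (adjusted p = 0.0848). The EV difference passed with normexp, with array weights and when only its 2 groups were fitted (adjusted p from 0.0243 to 0.0375). A second Insig1 probe moved the opposite way. It was at -1.35 and -1.86 in naive, -0.25 and -0.95 in smoke, -1.56 and -1.58 in EV and -1.97 and -2.01 in MSC. It was called higher in smoke than in naive at 1.01 (SE 0.34, adjusted p = 0.0411 over all kept probes) and lower in MSC than in smoke at -1.39 (adjusted p = 0.0091).

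The Insig1 calls therefore belong to 1 probe each and give no single direction for the gene. With the mean of both probes, Insig1 differed by -0.08 in smoke against naive (adjusted p = 0.851) and by -0.19 in MSC against smoke. The call of the first probe against naive was lost without any of the 4 arrays compared (adjusted p from 0.0525 to 0.12), and in MSC against smoke without either smoke array, either EV array or MSC array 1 (0.0615 to 0.163). The positions of the probes in the transcript are not used here.

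Srebf2 encodes SREBP2, whose activity is set mainly by cleavage of the protein, which an array does not measure. It was at 2.43 and 2.56 in naive, 1.57 and 1.99 in smoke, 2.63 and 2.51 in EV and 2.39 and 1.84 in MSC. The smoke and EV arrays did not overlap, and the MSC arrays spanned the upper smoke value. Smoke differed from naive by -0.72 (SE 0.31, adjusted p = 0.0911), EV from smoke by 0.79 (adjusted p = 0.0773) and MSC from smoke by 0.34 (adjusted p = 0.376). None passed the test on the main scale. EV against smoke passed it with normexp (0.70, adjusted p = 0.0326) and with array weights (adjusted p = 0.0243). It also passed with the trended and robust prior (adjusted p = 0.048) and when only its 2 groups were fitted (adjusted p = 0.0489). Leaving out an MSC array could not change the size of this difference, 0.79, which uses neither of them.

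Between the 2 treatments, limma called 0 of the 8 genes, with adjusted p from 0.138 to 0.844, beside 7.14% of all features. At an unadjusted p under 0.05 there was 1, Idi1, at -0.80 for EV against MSC (adjusted p = 0.138, 95% interval -1.55 to -0.06). Sqle was higher with EV by 0.75 (-0.16 to 1.66) and Hmgcs1 lower by -0.45 (-1.20 to 0.30), and neither passed. These intervals still hold differences of over a doubling for Sqle and Hmgcs1. Scaled to E1A, 4 of the 8 were called higher with EV than with MSC.

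Against naive, limma called 0 of the 8 genes for EV and 0 for MSC, beside 0% and 0.00398% of all features. There was also none at an unadjusted p under 0.05. The median difference of the 8 was -0.27 for EV and -0.17 for MSC, beside -0.06 and 0.23 over all features. In MSC against naive, all 8 differences lay below that of the median feature. The lowest were Sqle at -0.89 (95% interval -1.80 to 0.02) and Fdps at -0.88 (-1.82 to 0.07).

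By group means, Hmgcs1 and Insig1 ran from naive through MSC and EV to smoke, and Idi1 from MSC through naive and EV to smoke. Lss and Srebf2 ran from EV through naive and MSC to smoke. Smoke was thus lowest for these 5 genes by the probes tested. The second Insig1 probe, however, was highest in smoke, and the second Idi1 probe was lowest in MSC (-2.24, beside -2.15 in smoke). Fdps and Dhcr7 were highest in smoke, and Sqle was lowest in MSC. Most of these steps were within the spread: of the 24 pairs of neighbours in the 8 orders, 2 were called, smoke over naive for Fdps and MSC over smoke for Lss. The SD between the 2 arrays of a group had a median over the 8 genes of 0.27 in naive, 0.31 in smoke, 0.13 in EV and 0.40 in MSC.

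The genes were also compared by the root mean square distance between their profiles over the 8 arrays, each centred on its own mean. The closest pair within the set was Idi1 and Insig1 (0.25), followed by Hmgcs1 and Idi1 (0.29). Among all other named genes, the profile nearest to Hmgcs1 was that of Sall2 (0.12), nearest to Srebf2 that of Med15 (0.07) and nearest to Fdps that of Cd81 (0.21). The median distance to all other named genes was 0.71 for Hmgcs1, 0.67 for Srebf2 and 1.5 for Fdps. These distances describe 8 arrays that share their scaling and carry no test.

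**Figure D3:**
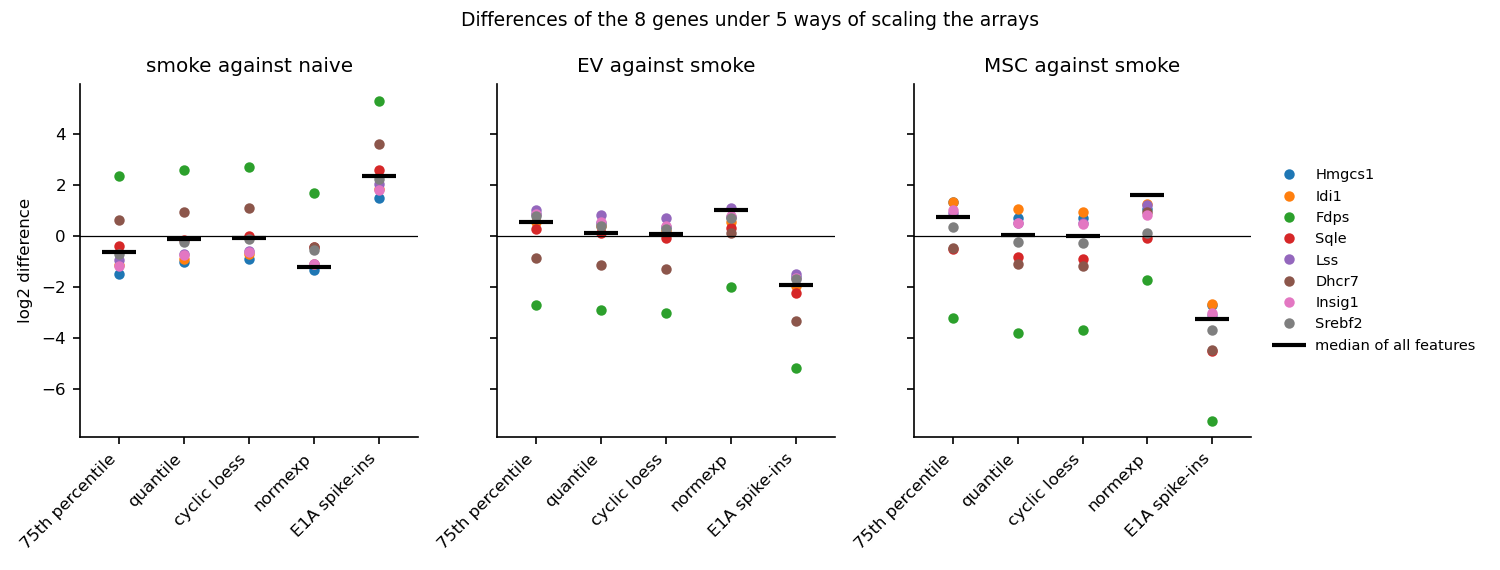
Log2 difference of the 8 genes (points) and of the median feature (black bar) under 5 ways of scaling the arrays, in the 3 comparisons with smoke. Fdps keeps its side of 0 and lies farthest from the median feature in each panel, whereas the genes near the median change sign with the E1A controls.

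The other genes of the pathway were followed in 6 lists of 57 genes, 52 of them measured. The counts of called genes in these lists stand beside 12.1% higher and 35.4% lower over all features in smoke against naive, 29.9% and 9.97% in EV against smoke, and 43.3% and 16.4% in MSC against smoke. Of 5 other mevalonate enzymes, 1 was higher and 2 were lower in smoke against naive, with a list median of -0.055 beside -0.62 for all features. Mvd, which makes isopentenyl diphosphate, was lower by a log2 difference of -1.91 (SE 0.26, adjusted p = 0.00241), and Acat2, the cytosolic acetoacetyl-CoA thiolase, by -1.77 (SE 0.28, adjusted p = 0.00338), although its 3 other probes lay between -0.87 and 0.39. Mvk, mevalonate kinase, was higher by 1.46 (adjusted p = 0.0177), was above background on 1 of the 2 naive arrays, and lay at -0.09 with normexp.

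Of the 8 other sterol enzymes measured, 0 were higher and 2 were lower in smoke, beside 12.1% and 35.4% of all features. The lower ones were Ebp, a sterol isomerase, at -1.51 (adjusted p = 0.00572) and Fdft1, squalene synthase, at -1.05 (adjusted p = 0.0231). Cyp51, lanosterol demethylase, differed by -0.97 (SE 0.46, adjusted p = 0.113). The list median was 0.21, so the unnamed members lay above the median feature. Fdft1 uses the product of Fdps, which moved the opposite way on this scale.

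Mvd, Acat2, Ebp and Fdft1, the enzymes called lower in smoke, were called higher than smoke with both treatments. Both results use the same 2 smoke arrays, so they are not independent. Of all features, 29.9% were called higher with EV and 43.3% with MSC. Scaled to E1A, these enzymes lay below smoke with both treatments. Against smoke, Mvd was higher by 1.61 with EV (adjusted p = 0.00505) and 2.37 with MSC (adjusted p = 0.000346), Ebp by 1.18 (adjusted p = 0.0166) and 1.99 (adjusted p = 0.000971), and Fdft1 by 1.00 (adjusted p = 0.0318) and 1.05 (adjusted p = 0.0175). Acat2 was higher by 0.97 with EV (adjusted p = 0.0304) and 1.91 with MSC (adjusted p = 0.00107) by the probe used, whereas its 3 other probes lay between -0.75 and 0.35 with EV and between -0.21 and 0.65 with MSC. In the mevalonate list, 2 of 5 were higher and 1 lower with either treatment. The lower one was Mvk, at -1.19 with EV (adjusted p = 0.0417) and -1.77 with MSC (adjusted p = 0.00551). It was above background on 1 of the 2 MSC arrays, and with normexp it differed by -0.12 with EV and 0.49 with MSC. In the sterol list, 2 of 8 were higher with either treatment, and 1 was lower with MSC, Tm7sf2, a sterol reductase, at -1.77 (adjusted p = 0.0337), above background on 1 of the 2 MSC arrays.

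Of the 9 genes of SREBP control, 2 were higher and 2 lower in smoke against naive (12.1% and 35.4% of all features). Insig2, the other INSIG gene, was higher by 1.22 (adjusted p = 0.0193), with another probe at 1.80, but the probe used lay at -0.38 with normexp. Mbtps1, the first protease that cuts SREBPs, was higher by 1.16 (adjusted p = 0.0456), with another probe at 2.32. Spring1, which aids that cleavage, was lower at -1.07 (adjusted p = 0.0221). Srebf1, which encodes the SREBP of fatty acid synthesis, was called lower at -1.03 (adjusted p = 0.0349), with another probe at 2.10. Scap differed by -0.57 (adjusted p = 0.143).

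Against smoke, 2 of these 9 were higher and 3 lower with EV (29.9% and 9.97% of all features), and 2 higher and 4 lower with MSC (43.3% and 16.4%). Spring1 was higher with both (0.97 with adjusted p = 0.0367, and 1.78 with adjusted p = 0.00185), as was Ubxn2b (1.09 with EV, and another probe at -1.18). Insig2 was lower with EV at -1.21 (adjusted p = 0.0237) and, by the probe used, a fitted 2.96-fold lower with MSC, where neither array was above background. Another Insig2 probe differed by -1.41 with EV and by -0.83 with MSC, a smaller fall with MSC than by the probe used. With normexp the probe used turned its sign, to 0.13 with EV and 0.81 with MSC. Rnf139, a ubiquitin ligase of the endoplasmic reticulum, was lower with EV at -2.01 (adjusted p = 0.0447). By the probe used it was a fitted 8.03-fold lower with MSC, again with neither array above background. With normexp, Rnf139 differed by -0.69 with EV and -0.07 with MSC, so neither size held. Mbtps1 was lower with MSC at -2.07 (adjusted p = 0.00341), with another probe at -0.57.

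Of 7 measured genes of cholesterol uptake and transport, 0 were higher and 3 lower in smoke against naive (12.1% and 35.4% of all features): Soat1, which esterifies cholesterol, at -1.39 (adjusted p = 0.0138), and the lysosomal exporters Npc2 at -1.07 (adjusted p = 0.0333) and Npc1 at -0.90 (adjusted p = 0.0498). Of 10 genes of LXR and efflux, 2 were higher and 2 lower, beside the same shares. The oxysterol receptor Nr1h2 (LXR beta) was higher by 1.42 (adjusted p = 0.00608) and Nr1h3 (LXR alpha) lower at -1.16 (adjusted p = 0.041), while the lipid transporters Abca7 and Abca1 lay at 1.08 (adjusted p = 0.0484) and -1.75 (adjusted p = 0.00592).

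Of 13 measured genes of fatty acid synthesis, 2 were higher and 4 lower in smoke, again beside 12.1% and 35.4% of all features. The desaturases Fads1 and Scd2 were higher by 2.97 (adjusted p = 0.00219) and 1.90 (adjusted p = 0.00755), with another Scd2 probe at -1.06 and Fads1 above background on 1 of the 2 naive arrays. Me1, which supplies NADPH, was lower at -1.68 (adjusted p = 0.00397) and Acaca, acetyl-CoA carboxylase, at -1.31 (adjusted p = 0.0129). Gpam, which starts glycerolipid synthesis, was called lower at -1.91, with other probes from -0.47 to 1.16. Fasn, fatty acid synthase, differed by -0.28 (adjusted p = 0.551). All 17 genes named from these lists that lay below naive in smoke lay above it when scaled to E1A. In the mevalonate, sterol and SREBP control lists, 6 genes were called above smoke in both treatments (Mvd, Acat2, Ebp, Fdft1, Spring1 and Ubxn2b). Scaled to E1A, these 6 lay below smoke. Such genes of the other lists, among them Me1 and Gpam, are not counted here.

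**Figure D4:**
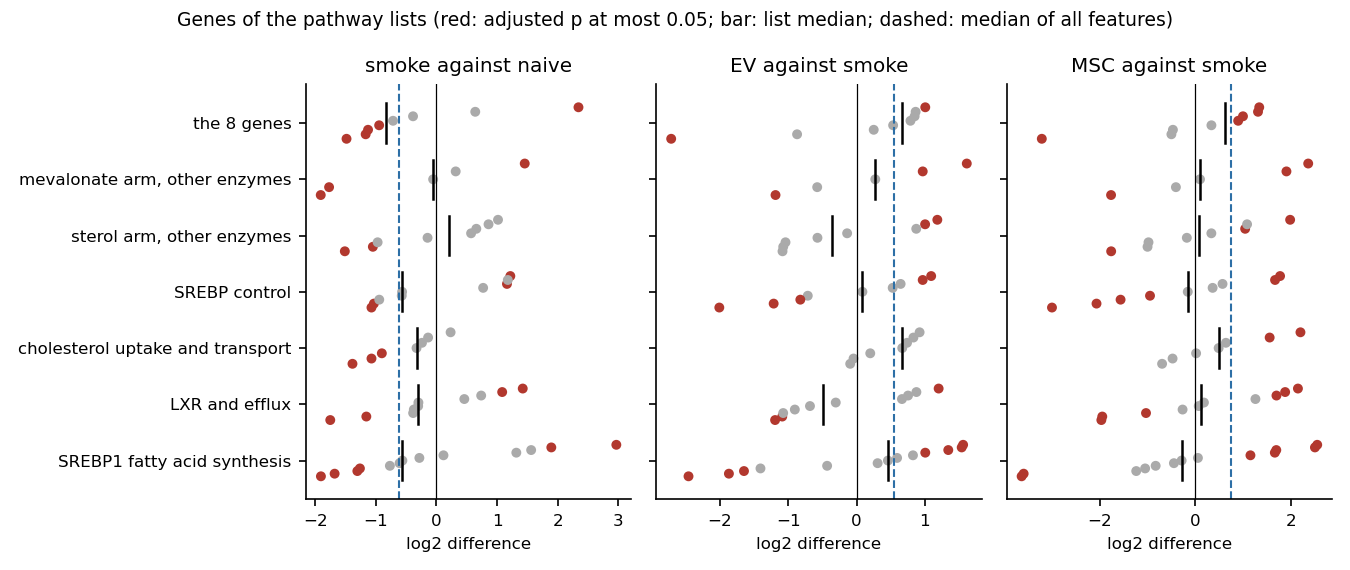
Log2 difference (x axis) of each measured gene of the 8 and of the 6 lists (y axis) in the 3 comparisons with smoke. Red points passed an adjusted p of 0.05, black bars are list medians and the dashed line is the median of all features. In smoke against naive, the 8 genes have 1 red point above 0 and 4 below, and the lists of sterol enzymes and of uptake have 0 above.

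The labelled tissue was checked by its markers. The surfactant genes of alveolar type 2 cells were detected on all arrays, and their markers summed to 1440 and 1770 times the 75th percentile in naive, 478 and 502 in smoke, 1180 and 1480 in EV and 1760 and 892 in MSC. Of 10 measured, 1 was called higher in smoke than in naive (Lpcat1 at 2.23) and 4 lower (Sftpc, Sftpb, Sftpd and Lyz2). Among those not called, Napsa, Sftpa1 and Slc34a2 lay at 0.79, 0.60 and 0.34, and Lamp3 and Etv5 at -0.70 and -0.18. This sum therefore does not stand for every marker. Endothelial markers (7 of 8 measured) summed to 133 and 158 in naive, 56 and 74.7 in smoke, 101 and 108 in EV and 209 and 105 in MSC. The sum does not speak for each member, since 2 were called higher in smoke than in naive (Cldn5 at 2.42 and Tie1 at 2.19) and 2 lower (Pecam1 and Kdr). Ciliated cell markers (5 of 7 measured, 0 called higher and 3 lower) summed to 37.4 and 41.5 in smoke and to between 74.3 and 93.4 elsewhere. These sums were lowest on the smoke arrays, as were Hmgcs1, Lss and the tested Idi1 probe, and their part in those differences was not tested. Adipocyte markers (4 of 7 measured, 0 called higher and 1 lower) summed to 0.986 and 0.958 in smoke and to at least 1.77 elsewhere. Cardiac muscle markers summed to 1.33 and 1.47 in smoke and to at least 2.04 elsewhere. Their part was not tested either. Some other sums were not lowest on both smoke arrays. That of alveolar type 1 cell markers was lowest on MSC array 2 (126, beside 214 and 240 in smoke). That of club cell markers was lowest on MSC array 1 (56.4, beside 81.7 and 77.3 in smoke). Macrophage markers (10 of 11 measured) summed to 3.20 and 4.37 in smoke and to between 2.11 and 3.94 elsewhere, and 3 were called higher in smoke than in naive (Adgre1 at 2.66, Mrc1 at 2.23 and Cd68 at 0.91) and 0 lower.

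Single arrays stood apart in markers of neighbouring organs. Liver markers (3 of 7 measured) summed to 16.4 on naive array 2 and to at most 0.374 on the others. Cardiac muscle markers (5 of 7 measured) summed to 31.7 on EV array 1 and 72.4 on MSC array 2, and to at most 3.21 on the others. Without any 1 array, Fdps stayed called in the 3 comparisons with smoke, at 1.84 to 2.85 against naive, -3.22 to -2.21 for EV and -3.72 to -2.72 for MSC. Without naive array 2, the call of Insig1 against naive was lost, as given above, and those of Hmgcs1, Idi1 and Lss were kept.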

How the data were processed

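The deposited files are Agilent Feature Extraction output (version 10.7.3.1, array design 074036), and the intensity values used were the processed signal, which is background-subtracted but not normalized between arrays, and the median signals of each spot and of its background, per the file headers. Other flags in the deposited files mark a spot as well above background, saturated or an outlier. No spot was saturated. Any other step by the authors is not stated in those headers or labels.

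Outlier spots were dropped. The level of a probe was log2 of the mean over its spots minus log2 of the array's 75th percentile, which was taken over spots of non-control probes. Probes were kept if well above background, in at least 0.5 of their spots, on each array of 1 or more groups: 29612 of 45598. By accession, 21215 probes matched a RefSeq (GRCr8) symbol. The kept probe with the highest mean level stood for a gene, which gave 25097 features, 12729 with a symbol. From 48.3% to 71.5% of probes were detected on an array, replicates correlated at 0.95 to 0.972, and 2 arrays in each group limit the precision.

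Differences were tested, two-sided, with limma 3.58.1 in R 4.3.3 over the 4 group means (4 residual degrees of freedom), with Benjamini-Hochberg adjustment over all features and 95% intervals. E1A scaling used 7 of 10 control probes with a mean log2 signal of at least 6. The steps were tested on simulated data. All arrays share 1 slide on which group and column cannot be told apart, and the replicate number is the slide row. Same-numbered arrays did not deviate together (r from -0.149 to 0.138), so arrays were not paired.

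The members, gene lists and tests were chosen with earlier results of these data known. From each list the text names the called genes with the smallest p in each direction and fixed genes such as Cyp51 and Scap, and some genes of the pathway are not reported here. For uptake, LXR and fatty acid genes this was done for smoke against naive only. Another 22 settings were tried, 1 of them, the percentile over probes, chosen after seeing the data. Normexp (offset 50) used the median signals. Promoters were read with Python 3.11.15.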

Additional observations from a re-analysis of the deposited data

How the results depend on the processing

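The number of the 8 genes called in smoke against naive, 5, became 3 with quantile normalization, 2 with cyclic loess, 2 with the percentile over probes and 8 with E1A scaling. In EV against smoke, 2 became 5 with normexp, 4 when only its 2 groups were fitted, 4 with a trended and robust prior, 6 with array weights and 8 with E1A scaling, and 1 with quantile normalization, with no filter on dim probes and with the percentile over probes. In MSC against smoke, 5 became 3 with quantile normalization, cyclic loess, no filter, the fit of 2 groups or the percentile over probes, 2 with the probes of a gene averaged and 8 with E1A scaling. In EV against MSC, 0 became 2 with normexp and 4 with E1A scaling. With the replicate number as a block, which the arrays did not bear out as a pairing, 4, 1 and 4 genes were called in the 3 comparisons with smoke. Leaving out 1 array gave 1 to 5 in smoke against naive, 1 to 4 in EV against smoke and 2 to 5 in MSC against smoke. A comparison with 1 array left in a group assumes that this array varies like the others.

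The count of features called moved from 4381 to 20877 in smoke against naive, from 1866 to 18577 in EV against smoke, from 10116 to 23320 in MSC against smoke, from 0 to 12638 in EV against MSC, from 0 to 26 in EV against naive and from 0 to 1633 in MSC against naive. Of all calls in smoke against naive, 25.5% were higher, and this share was 46.9% with quantile normalization, 10.4% with normexp and 99.4% with E1A scaling. It was 75%, 54.5%, 89.1% and 1% in EV against smoke, and 72.5%, 49.9%, 89% and 0.885% in MSC against smoke.

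Signs turned as follows, and the cause was not tested. With E1A scaling, which adds 1 constant to each array, the log2 differences became as follows. Hmgcs1 was at 1.48, Sqle at 2.58, Idi1 at 1.83, Lss at 2.02, Insig1 at 1.79, Srebf2 at 2.25, Mvd at 1.05, Acat2 at 1.19, Ebp at 1.45, Fdft1 at 1.91, Cyp51 at 1.99, Spring1 at 1.89, Srebf1 at 1.93, Scap at 2.40, Soat1 at 1.58, Npc2 at 1.89, Npc1 at 2.06, Abca1 at 1.21, Nr1h3 at 1.80, Me1 at 1.28, Gpam at 1.06, Acaca at 1.66 and Fasn at 2.68 in smoke against naive. Hmgcs1 was at -1.62, Sqle at -2.23, Idi1 at -1.95, Lss at -1.48, Insig1 at -1.63, Srebf2 at -1.69, Mvd at -0.87, Acat2 at -1.51, Ebp at -1.30, Fdft1 at -1.48, Cyp51 at -1.61, Spring1 at -1.51, Ubxn2b at -1.39, Scap at -1.84 and Srebf1 at -1.95 in EV against smoke. Hmgcs1 was at -2.71, Idi1 at -2.68, Lss at -3.12, Insig1 at -3.02, Srebf2 at -3.68, Mvd at -1.65, Acat2 at -2.11, Ebp at -2.03, Fdft1 at -2.98, Cyp51 at -2.94, Spring1 at -2.24, Ubxn2b at -2.35, Scap at -3.45 and Srebf1 at -3.66 in MSC against smoke. Hmgcs1 was at 1.09, Idi1 at 0.73, Dhcr7 at 1.14 and Insig1 at 1.39 in EV against MSC. Sqle was at 0.34, Fdps at 0.11, Dhcr7 at 0.25 and Insig1 at 0.16 in EV against naive. Idi1 was at -0.85 and Dhcr7 at -0.89 in MSC against naive. The next values are with normexp. Dhcr7 was at -0.43, Mvk at -0.094 and Insig2 at -0.38 in smoke against naive. Dhcr7 was at 0.12, Insig2 at 0.13 and Rnf145 at 0.056 in EV against smoke. Dhcr7 was at 0.92, Mvk at 0.49, Tm7sf2 at 0.67 and Insig2 at 0.81 in MSC against smoke. Fdps was at -0.30 and Lss at -0.15 in EV against MSC. Lss was at -0.041 in EV against naive. Lss was at 0.11 in MSC against naive. The next are with quantile normalization. Srebf2 was at -0.26 in MSC against smoke. Insig1 was at 0.039 in EV against MSC. Dhcr7 was at -0.14 in MSC against naive. Fasn was at 0.30 in smoke against naive. The next are with cyclic loess. Sqle was at -0.074 in EV against smoke. Srebf2 was at -0.28 and Srebf1 at -0.084 in MSC against smoke. Dhcr7 was at -0.12 in MSC against naive. Fasn was at 0.40 in smoke against naive. The next are with the probes of a gene averaged. Insig1 was at -0.061, Acat2 at -0.035, Ubxn2b at -0.041 and Srebf1 at -0.67 in EV against smoke. Insig1 was at -0.19 and Srebf1 at -0.71 in MSC against smoke. Insig1 was at 0.13 in EV against MSC. Idi1 was at -0.28 in MSC against naive. Srebf1 was at 0.53 in smoke against naive. The last are with the percentile over probes. Srebf2 was at -0.059 and Srebf1 at -0.034 in MSC against smoke. Insig1 was at 0.099 in EV against MSC. Dhcr7 was at -0.012 in MSC against naive.

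Leaving out arrays turned other signs, with these ranges over the 8 arrays. Sqle went from -0.003 to 0.51 in EV against smoke. Sqle went from -1.02 to 0.017 in MSC against smoke. Insig1 went from -0.52 to 0.23 in EV against MSC. Lss went from -0.32 to 0.44 and Dhcr7 from -0.51 to 0.052 in EV against naive. Hmgcs1 went from -0.35 to 0.012, Idi1 from -0.079 to 0.50, Lss from -0.42 to 0.33, Dhcr7 from -0.12 to 0.46 and Insig1 from -0.55 to 0.21 in MSC against naive. Fasn went from -0.60 to 0.038 in smoke against naive. Fdps kept its direction and call in the 3 comparisons with smoke in all 21 alternatives. Over the 8 genes and 6 comparisons, 880 values kept their direction and side of the threshold, 62 lost the call, 30 gained it and 60 turned.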
